A study of Homo sapiens with 3 samples.

Results

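The core of the transforming growth factor beta (TGF-beta) pathway was examined in 10 genes: the ligand genes TGFB1, TGFB2 and TGFB3, the receptor and co-receptor genes TGFBR1, TGFBR2, TGFBR3 and ENG, and the signalling SMAD genes SMAD2, SMAD3 and SMAD4. The genes were chosen by name with earlier results of these data known, and probe sets of the array were assigned to them by gene symbol. All 10 were measured, each by 1 probe set, out of 17185 named genes on 45033 probe sets. The cells came from MNNG/HOS, a human osteosarcoma line in long-standing laboratory use, and were kept in serum-free medium throughout; spheres that formed spontaneously had been removed, and the adherent cells left on the dish were the starting material of all groups. The untreated group was kept for 5 days with no added factor, the day 3 group received 4 ng/mL TGF-beta1 for 3 days, and the third group received 4 ng/mL TGF-beta1 for 5 days, after which only floating spheres were collected. Total RNA of each group was labelled with Cy3 and hybridised to 1 array, so there were 3 arrays, no replicates, no test and no error between samples.

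TGF-beta ligands are made as precursors that are cut and then held latent in the matrix until they are released. An active ligand binds the type II receptor (TGFBR2), which phosphorylates the type I receptor (TGFBR1), and this kinase phosphorylates SMAD2 and SMAD3, which enter the nucleus with SMAD4. Betaglycan (TGFBR3) and endoglin (ENG) are co-receptors without kinase activity of their own, and betaglycan is known for presenting TGF-beta2, which binds TGFBR2 poorly by itself. In bone, TGF-beta is stored in the mineralised matrix and acts on osteoblasts and their precursors. The arrays measured RNA only: the added TGF-beta1 was protein, and neither secreted ligand nor SMAD phosphorylation was measured.

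Values are intensities on a linear scale, and a difference is the log2 of 1 array's value over another's. The call rule was one of size and took the place of a test: 2 arrays had to differ by at least 2-fold. A gene passed the level filter when its highest value reached 684.9, the median of all gene values. The filter was passed by 7 of the 10 genes, and not by TGFB2, TGFB3 and SMAD2. Gene values under 63.41 made up the lowest quartile, where an unknown part is background. Probes differ in brightness, so the intensity of a gene is compared here with itself on another array and not with that of another gene. In bulk RNA, fewer cells of a type and less RNA per cell cannot be told apart.

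The arrays were similar as wholes, with median intensities of 437.4 to 454.8 and Pearson's r over all probe sets of 0.977 to 0.979 for each pair. Median differences over the named genes were -0.04 to 0.01 in log2. Of 12 bone lineage markers, 7 reached the median gene level on all 3 arrays, among them RUNX2, SPP1, COL1A1, SPARC and VIM. SP7 and IBSP lay in the lowest quartile on every array, and ALPL and COL1A2 on the untreated array only. Of 12 epithelial markers, 3 (EPCAM, KRT8 and KRT18) reached the median on all 3 arrays. CDH1 and ESRP1 lay in the lowest quartile on all 3. The cells of the day 3 culture may have been adherent, floating or both, since the labels do not say which were collected. Days in culture therefore differ along with treatment between day 3 and untreated cells, and the fraction collected differs along with treatment between spheres and untreated cells. Spheres and the day 3 culture had the same dose but differ in days and possibly in fraction. Those influences cannot be told apart in these 3 arrays.

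Across the 3 arrays, 5 of the 10 genes had a highest value at least 2-fold over their lowest (TGFB1, TGFB2, TGFB3, TGFBR3 and SMAD3) and 5 did not (TGFBR1, TGFBR2, ENG, SMAD2 and SMAD4). Among all named genes the same range was reached by 20.2%, and among those past the level filter by 16.4%, against 3 of the 7 members past it. The untreated array held the highest value for 5 genes, the day 3 array for 4 and the sphere array for 1. The plot of the members by role shows the ligands moving apart from each other, the kinase receptors nearly level, and SMAD3 lower on both treated arrays.

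**Figure D1:**
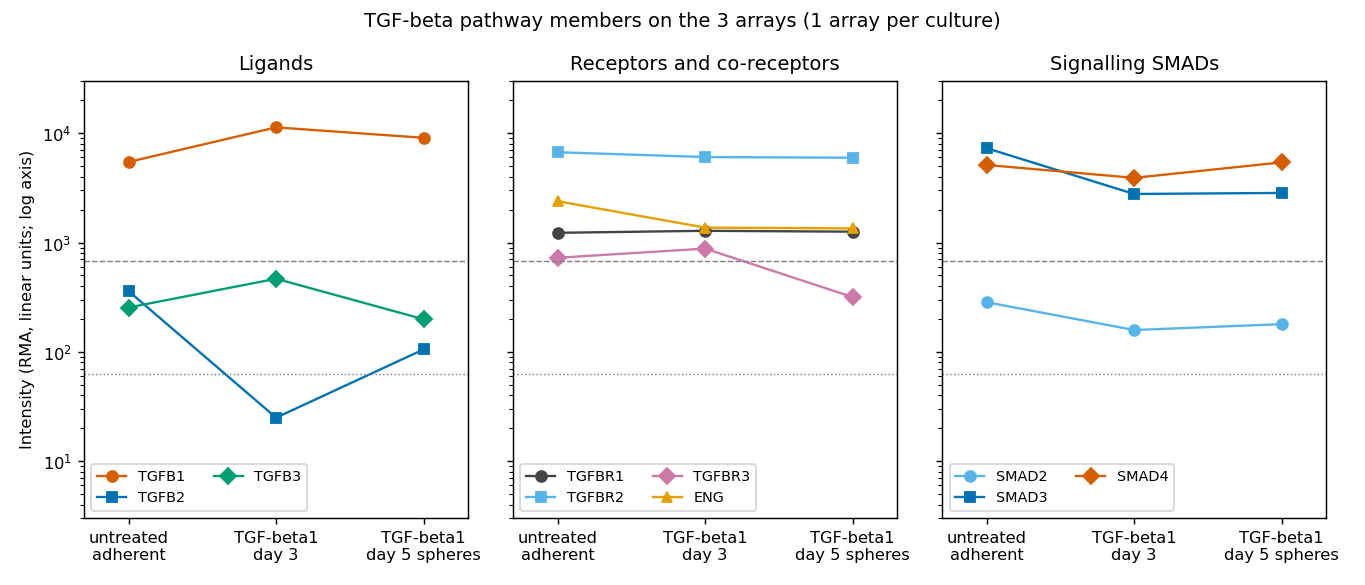
Intensity (RMA, linear units, log axis) of each of the 10 genes on the untreated, day 3 and sphere arrays, 1 point per array, with lines joining the points of a gene; the dashed line is the level filter (684.9) and the dotted line the upper edge of the lowest quartile (63.41). TGFB1 reached 11309.57 at day 3 while TGFB2 dropped to 25.02, and the TGFBR1 and TGFBR2 lines are nearly flat.

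The promoters of TGFB1, TGFB2 and SMAD3 are shown because these genes differed by at least 2-fold between day 3 and untreated cells, TGFB1 upward and the other two downward. The sequences are from RefSeq, build GRCh38.p14, 5′ to 3′ on the strand of the gene, from 250 bases before the outermost annotated start to 50 after it. The TGFB1 window is chr19:41353873-41354172 on the minus strand, the TGFB2 window chr1:218345086-218345385 on the plus strand and the SMAD3 window chr15:67065352-67065651 on the plus strand. Capitals mark the letters of the motifs searched on both strands: the SMAD palindrome GTCTAGAC, the shorter SMAD element CAGAC, the AP-1 site TGANTCA, the cyclic AMP response element TGACGTCA, the E-box CACGTG and the GC box GGGCGG.
TGFB1: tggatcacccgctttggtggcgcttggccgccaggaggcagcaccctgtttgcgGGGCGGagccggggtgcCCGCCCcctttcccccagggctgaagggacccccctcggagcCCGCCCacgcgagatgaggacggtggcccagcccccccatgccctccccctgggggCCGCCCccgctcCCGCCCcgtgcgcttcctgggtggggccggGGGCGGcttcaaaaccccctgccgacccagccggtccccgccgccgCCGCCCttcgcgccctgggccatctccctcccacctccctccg
TGFB2: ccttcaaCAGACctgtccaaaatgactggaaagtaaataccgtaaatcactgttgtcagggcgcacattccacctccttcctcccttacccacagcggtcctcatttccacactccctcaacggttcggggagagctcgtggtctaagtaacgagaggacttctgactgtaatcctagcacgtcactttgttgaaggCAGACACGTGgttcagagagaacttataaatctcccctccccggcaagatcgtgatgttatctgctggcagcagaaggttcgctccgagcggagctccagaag
SMAD3: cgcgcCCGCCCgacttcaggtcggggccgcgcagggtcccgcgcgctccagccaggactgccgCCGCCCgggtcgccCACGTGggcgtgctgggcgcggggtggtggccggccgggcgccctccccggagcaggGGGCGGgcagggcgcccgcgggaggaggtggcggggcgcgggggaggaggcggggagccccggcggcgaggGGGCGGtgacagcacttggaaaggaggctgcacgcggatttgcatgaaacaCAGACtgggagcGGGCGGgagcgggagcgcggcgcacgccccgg
The TGFB1 window held 7 GC boxes, which the transcription factor SP1 binds, and none of the other motifs. The TGFB2 window held no GC box and 2 CAGAC elements, 1 of which overlaps by a base with an E-box whose first base lies at -49 from the start. The SMAD3 window held 5 GC boxes, 1 E-box and 1 CAGAC, and its GC content was 80.3%, against 77.3% for TGFB1 and 51.7% for TGFB2. Of 35116 RefSeq promoter windows of this length, 45.3% held CAGAC, 45.0% the GC box, 7.26% the E-box, 7.71% the AP-1 site, 1.85% the cyclic AMP element and 0.202% the SMAD palindrome. Of 9 members with a window at their outermost start, 3 held CAGAC and 3 an E-box (TGFB2, TGFB3 and SMAD3 in both cases), 4 a GC box (TGFB1, SMAD2, SMAD3 and SMAD4), and 0 any of the other motifs. TGFBR3 had no window at its outermost start. Windows at other annotated starts were left out of these counts, and some held the motifs. Among them were AP-1 sites for TGFBR2 and SMAD3, CAGAC for TGFBR1 and SMAD3, and GC boxes for TGFBR1, TGFBR2 and TGFBR3. A match in letters is a description and not a site in use, and no RNA start in these cells was mapped.

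The first comparison asks how the pathway's own genes stood after 3 days of TGF-beta1. TGFB1 was higher and TGFB2 and SMAD3 were lower than in untreated adherent cells, while both kinase receptor genes stayed close to their untreated values. At least 2-fold higher was 1 of the 10 genes (TGFB1), against 5.77% of all named genes, and at least 2-fold lower were 2 of 10 (TGFB2 and SMAD3), against 5.26%. Past the level filter these were 1 of 7 higher, against 4.60%, and 1 of 7 lower, against 3.44%. The median difference of the 10 genes was -0.27 in log2, from -3.85 for TGFB2 to 1.05 for TGFB1, with 4 above 0, beside a median of -0.01 over all named genes.

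The second comparison sets the spheres after 5 days of TGF-beta1 beside the same untreated array, which the first comparison also uses. TGFB2, TGFBR3 and SMAD3 were at least 2-fold lower in the spheres, 3 of 10 against 5.00% of all named genes, and 0 of 10 were at least 2-fold higher, against 4.90%. Past the level filter, 2 of 7 were lower (TGFBR3 and SMAD3), where 4.40% of genes past it were, and 0 of 7 higher, where 3.98% were. TGFBR3 passed the filter only through the untreated and day 3 arrays, where it is high, so its filtered count is partly set by the filter here and in the next comparison. The median of the 10 differences was -0.51 in log2, from -1.77 to 0.73, with 3 above 0, beside 0.01 over all named genes.

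The last comparison sets spheres against the day 3 culture, which differ in days of culture and treatment and possibly in the fraction of cells collected. TGFB2 was higher in the spheres, 1 of 10 against 5.78% of all named genes, and TGFB3 and TGFBR3 were lower, 2 of 10 against 4.72%. Past the level filter 0 of 7 were at least 2-fold higher, against 4.57%, and 1 of 7 lower (TGFBR3), against 5.12%. The median of the 10 differences was -0.02, beside -0.04 over all named genes. The 3 named stood apart in size, and the other members lay between -0.32 for TGFB1 and 0.47 for SMAD4. With 10 genes each member is 10% of the list, and 1 array per culture gives no error to set these shares against.

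**Figure D2:**
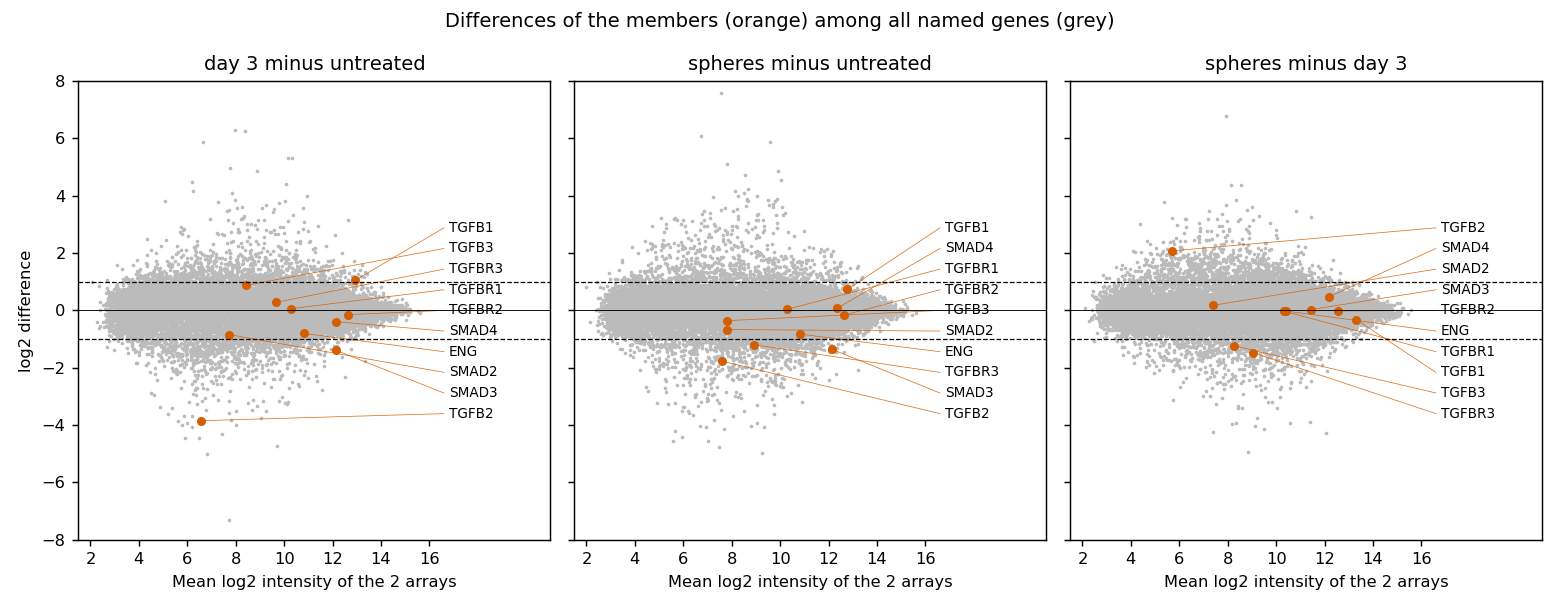
Log2 difference (vertical axis) against mean log2 intensity of the 2 arrays compared (horizontal axis) for all 17185 named genes (grey) and the 10 members (orange, labelled), in the 3 comparisons; dashed lines mark 2-fold. TGFB2 lies at -3.85 at day 3, where 0.06% of genes had a lower difference, and TGFB1 and SMAD3 lie at high intensity, where few genes pass 2-fold.

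Wide differences were more common at some levels than at others. The named genes were divided into quartiles by their mean log2 level. In the highest quartile, which holds TGFB1, TGFBR2, SMAD3 and SMAD4, 1.72% of genes differed at least 2-fold in either direction between day 3 and untreated cells, 2.23% between spheres and untreated cells and 1.72% between spheres and day 3. In the second quartile from the bottom, which holds TGFB2, TGFB3, TGFBR3 and SMAD2, the shares were 23.0%, 19.0% and 21.9%. TGFBR1 and ENG lay in the quartile between these, with shares of 9.78%, 10.2% and 12.2%. A 2-fold difference was therefore an uncommon value among genes as bright as TGFB1 and SMAD3 and a frequent one among genes at the level of TGFB2, TGFB3 and TGFBR3.

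Among the ligands, TGFB1 encodes the isoform that was also added to the medium as protein. Its intensity was 5453.89 in untreated cells, 11309.57 at day 3 and 9073.64 in the spheres. Both treated arrays were above the untreated one, with day 3 the highest. TGFB1 was 2.07-fold higher at day 3 than untreated (log2 1.05), and 5.14% of named genes had a higher difference. It was 1.66-fold higher in the spheres than untreated (log2 0.73), short of 2-fold, and differed by -0.32 in log2 between spheres and day 3. The day 3 value passed the 2-fold rule by a small margin, and lay between 1.04 and 1.11 in log2 under the 4 other ways of processing that can change it.

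TGFB2 encodes the isoform that relies on betaglycan for efficient receptor binding. Its intensity was 359.95 in untreated cells, 25.02 at day 3 and 105.46 in the spheres. The untreated array was the highest of the 3 and day 3 the lowest, with its value in the lowest quartile. TGFB2 was 14.4-fold lower at day 3 than untreated (log2 -3.85) and 3.41-fold lower in the spheres (log2 -1.77). Between day 3 and the spheres it was 4.22-fold higher in the spheres (log2 2.08), and 0.62% of genes had a higher difference. No TGFB2 value reached the level filter, and the size of each fold rests on low values. With 64 added to every intensity the day 3 difference was -2.25, the sphere difference against untreated -1.32, and that between spheres and day 3 was 0.93, under 2-fold.

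TGFB3, the remaining isoform, had intensities of 254.54 untreated, 466.76 at day 3 and 198.73 in the spheres. Day 3 was the highest array, and the spheres lay slightly below the untreated cells. TGFB3 was 1.83-fold higher at day 3 (log2 0.87), short of 2-fold, and differed by -0.36 in log2 between spheres and untreated cells. Spheres were 2.35-fold lower than day 3 (log2 -1.23), and 2.78% of genes had a lower difference. Like TGFB2, it did not pass the level filter on any array.

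The ligand genes can also be set against each other by their differences. From untreated to day 3, TGFB1 moved by 4.90 in log2 relative to TGFB2, a value that rests on the low TGFB2 intensity and was 3.30 with 64 added to every intensity, and by 0.18 relative to TGFB3. From untreated cells to spheres the corresponding values were 2.51 and 1.09. TGFB1 and TGFB3 thus shifted by similar amounts at day 3 and by different amounts in the spheres, while TGFB2 went the other way from TGFB1 against the untreated array in both.

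TGFBR1 encodes the type I receptor kinase. Its intensity was 1227.59 untreated, 1280.59 at day 3 and 1256.98 in the spheres. The 3 values were almost equal, with a highest over lowest ratio of 1.04. TGFBR2, the type II receptor kinase gene, had intensities of 6700.47, 6051.82 and 5966.65 in the same order. Its highest value was 1.12-fold over its lowest, with the untreated array on top. In the 3 comparisons the differences of TGFBR1 were 0.06, 0.03 and -0.03 in log2, and those of TGFBR2 were -0.15, -0.17 and -0.02. These are the smallest ranges among the 10 genes. The TGFBR2 probe set carries the accession of 1 of several annotated transcripts, and which isoforms its probes detect was not examined.

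TGFBR3 encodes betaglycan. Its intensity was 725.76 untreated, 880.42 at day 3 and 316.88 in the spheres. The spheres were the low array, and the day 3 value was slightly above the untreated one. TGFBR3 was 2.29-fold lower in the spheres than in untreated cells (log2 -1.20) and 2.78-fold lower than at day 3 (log2 -1.47), where 1.67% of genes had a lower difference. Between day 3 and untreated cells it differed by 0.28 in log2. It passed the level filter through the untreated and day 3 values, while the sphere value was below 684.9. TGFB2, the ligand that betaglycan presents, was lowest at day 3, so the low points of the pair fell on different arrays.

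ENG encodes endoglin, the other co-receptor, known from endothelial cells and also used as a mesenchymal stromal marker (CD105). Its intensity was 2389.33 untreated, 1369.45 at day 3 and 1347.74 in the spheres. Both treated arrays were lower and close to each other. ENG was 1.75-fold lower at day 3 (log2 -0.80) and 1.77-fold lower in the spheres (log2 -0.83), short of 2-fold in both, and 8.11% and 7.47% of genes had a lower difference. Of 12 endothelial markers, 5 (VWF, KDR, TEK, TIE1 and EMCN) lay in the lowest quartile on all 3 arrays and 1 (EGFL7) reached the median gene level on all 3. Their summed intensity was 4082.7 untreated, 4263.7 at day 3 and 3237.9 in the spheres, and their median difference was -0.11 at day 3 and -0.19 in the spheres. Of the 12, 1 was at least 2-fold higher and 2 lower at day 3, beside 5.77% and 5.26% of all named genes. In the spheres 1 was higher and 3 lower, beside 4.90% and 5.00%. The higher one was the adhesion gene PECAM1, with 65.64 untreated, 944.27 at day 3 and 171.27 in the spheres, past the level filter only at day 3. ROBO4, a receptor gene of endothelial cells, had 922.47, 357.28 and 423.97, in the direction of ENG. All 3 samples are labelled as the MNNG/HOS line, so these marker values are not a measure of endothelial cells. Why ENG was lower was not tested.

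SMAD2 encodes a receptor-phosphorylated SMAD. Its intensity was 284.73 untreated, 158.49 at day 3 and 179.39 in the spheres. Untreated cells had the highest value and both treated arrays were lower. SMAD2 was 1.80-fold lower at day 3 (log2 -0.85) and 1.59-fold lower in the spheres (log2 -0.67), short of 2-fold, and it did not pass the level filter.

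SMAD3, the other receptor-phosphorylated SMAD of TGF-beta signalling, binds DNA directly through the CAGAC motif marked above. Its intensity was 7295.76 untreated, 2781.36 at day 3 and 2842.93 in the spheres. The 2 treated arrays were almost equal and both far below the untreated one. SMAD3 was 2.62-fold lower at day 3 (log2 -1.39) and 2.57-fold lower in the spheres (log2 -1.36), and 2.43% and 2.45% of genes had a lower difference. Spheres and day 3 differed by 0.03 in log2. SMAD3 was past 2-fold and past the level filter in both comparisons with untreated cells. Both comparisons share the untreated array, so the second is no repeat of the first.

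SMAD4, the common partner of the receptor-phosphorylated SMADs, had intensities of 5124.1 untreated, 3905.27 at day 3 and 5412.61 in the spheres. Day 3 was the lowest array, and spheres and untreated cells were close. Its differences were -0.39, 0.08 and 0.47 in log2 in the 3 comparisons, none past 2-fold. Relative to SMAD3, SMAD4 shifted by 0.999 in log2 from untreated to day 3 and by 1.44 from untreated to spheres, and SMAD2 by 0.55 and 0.69.

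The genes around this core were counted by their place in the pathway, with the same 2-fold rule and all measured genes of each list. Of 30 known TGF-beta target genes, a list drawn up with earlier results of these data known, 14 passed 2-fold upward at day 3 (11 of them past the level filter) and 1 downward. Among all named genes 5.77% were higher and 5.26% lower, and past the filter 4.60% and 3.44%. In the spheres, against the same untreated array, 14 were higher (11 past the filter) and 1 lower. The shares of all named genes there were 4.90% and 5.00%, and past the filter 3.98% and 4.40%. The list's median difference was 0.88 in both, while the median over the 10 core genes was -0.27 and -0.51. The hyaluronan-binding protein gene TNFAIP6 went from 12.9 untreated, in the lowest quartile, to 761.49 at day 3 and 865.55 in the spheres. It passed the level filter only through the treated arrays, where it is high. The filtered counts of higher target genes are therefore partly set by the filter. The transglutaminase gene TGM2 was the lower target in the spheres, with 2346.32, 1223.51 and 277.83 in untreated, day 3 and sphere RNA.

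Ligand release and storage form the step before the receptors. Of 21 genes for latency and activation, 6 passed 2-fold upward at day 3 (4 of them past the level filter) and 0 downward, with a median of 0.47. Among all named genes 5.77% were higher and 5.26% lower, and past the filter 4.60% and 3.44%. FURIN, the protease that cuts the TGF-beta precursor, had 774.56 untreated, 2176.4 at day 3 and 1362.32 in the spheres, 2.81-fold higher at day 3. MMP2, a protease able to release latent TGF-beta, was 2.94-fold higher at day 3 and 2.40-fold higher in the spheres. EMILIN1, an elastic fibre glycoprotein reported in mice to hold back precursor processing, was also higher at day 3, by 2.84-fold.

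In the spheres the latency list split, with 4 of 21 higher and 3 lower than untreated, beside 4.90% and 5.00% of all named genes. Past the level filter 2 were higher and 2 lower, beside 3.98% and 4.40%. The lower ones included LTBP1, which tethers the latent complex to the matrix, with 2366.16 untreated, 2042.2 at day 3 and 823.31 in the spheres. FBN1, the fibrillin to which such complexes attach, had 881.83, 679.59 and 287.51. Against day 3, 0 of 21 were higher and 3 were lower in the spheres, beside 5.78% and 4.72% of all named genes. Past the filter 0 were higher and 2 lower, beside 4.57% and 5.12%. Those 2 were LTBP1, by 2.48-fold, and FBN1, by 2.36-fold. LTBP1, FBN1 and TGFBR3 had their low value on the sphere array. LTBP1 and FBN1 were named for the size of their differences, so this shared low array follows partly from the choice. The related LTBP2 and LTBP4 were higher in the spheres than untreated, by 0.66 and 0.68 in log2, and LTBP3 differed by -0.15.

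**Figure D3:**
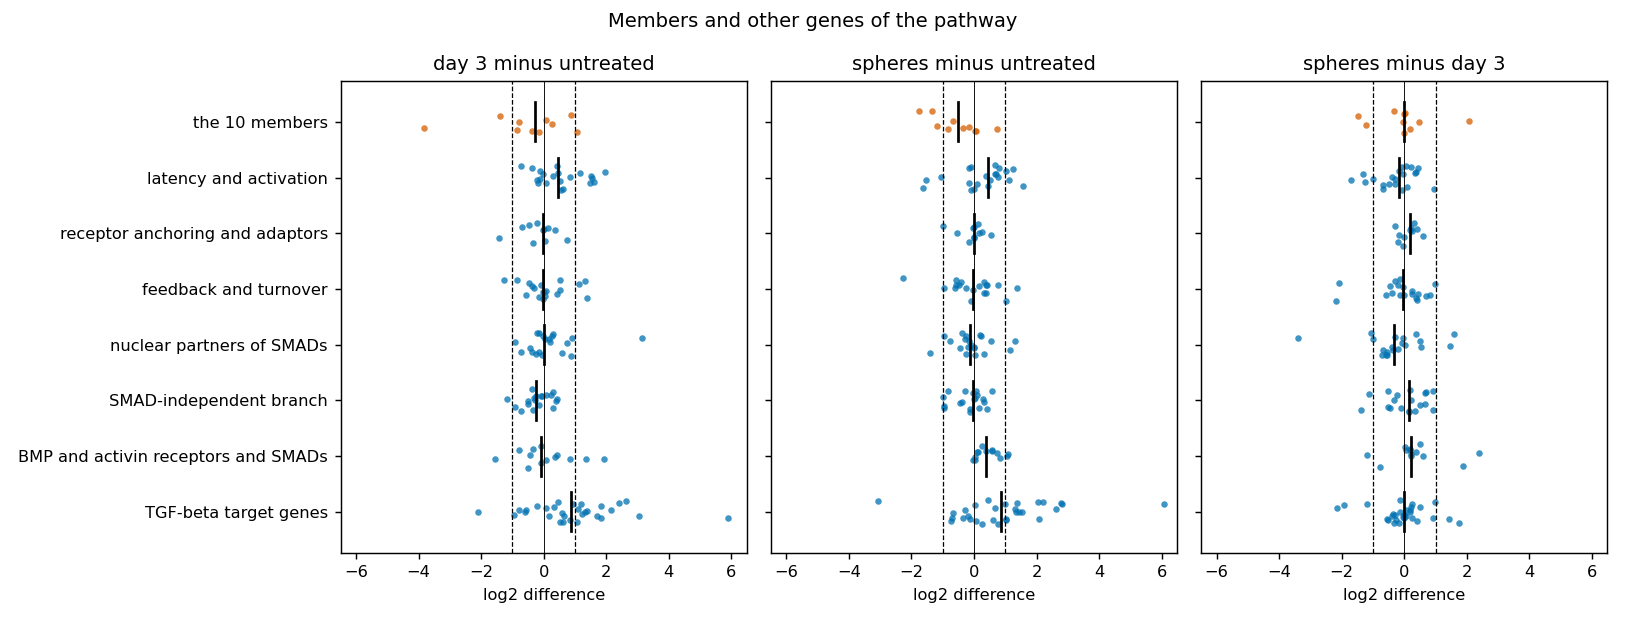
Log2 differences (horizontal axis) of the 10 members (orange) and of 7 further gene lists of the pathway (blue), 1 point per measured gene, with the list median as a black bar and 2-fold as dashed lines; vertical scatter within a list has no meaning. Target genes have a median of 0.88 in both comparisons with untreated cells, where the 10 members have -0.27 and -0.51 and all named genes -0.01 and 0.01. SMAD7, PMEPA1, SKIL and LTBP2 are each drawn in the target list and in another list. Members and lists were chosen with earlier results of these data known.

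Of 11 measured genes that anchor or traffic the receptors, 0 were at least 2-fold higher than untreated, at day 3 or in the spheres. Of all named genes 5.77% and 4.90% were. In each of these comparisons 1 of the 11 was lower, beside 5.26% and 5.00% of all named genes. That gene was DAB2, an endocytic adaptor that links the receptors to SMADs, with 1651.8 untreated, 617.46 at day 3 and 822.07 in the spheres. CD109, a TGF-beta co-receptor that limits signalling, differed by 0.76 and 0.54 in log2. Between spheres and day 3, 0 of 11 passed 2-fold in either direction, where 5.78% of all named genes were higher and 4.72% lower.

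Of 19 feedback and turnover genes, 3 were higher and 1 lower at day 3, beside 5.77% and 5.26% of all named genes, and 2 were higher and 1 lower in the spheres, beside 4.90% and 5.00%. The inhibitory SMAD7 stood at 1121.66, 2771.08 and 2264.5. PMEPA1, which sequesters receptor-phosphorylated SMADs, stood at 3137.97, 8099.78 and 8072.59. Both were opposite in direction to SMAD3. SMAD7, PMEPA1 and SKIL of this list, and LTBP2 of the latency list, are also in the target list. The counts of these lists therefore overlap and are not separate observations. NEDD4L, a ubiquitin ligase for activated SMAD2 and SMAD3, was 2.41-fold lower at day 3. In the spheres against day 3, SMAD6, the inhibitory SMAD of the BMP branch, was 4.54-fold lower and the decoy receptor gene BAMBI 4.25-fold lower.

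Nuclear partners of the SMADs included 1 of 20 at least 2-fold higher at day 3 and 0 lower, a count near the shares of all named genes (5.77% and 5.26%). ATF3, which can act with SMAD3 in repressing ID1, had 386.56 untreated, 3396.23 at day 3 and 321.87 in the spheres. It passed the level filter only through the day 3 array, where it is high. Against untreated cells, 2 of 20 were higher in the spheres and 1 lower, beside 4.90% and 5.00% of all named genes. ZEB1, a repressor of epithelial genes, was 2.50-fold higher, the forkhead factor FOXO1 2.23-fold higher and ZEB2 2.68-fold lower. Spheres against day 3 gave 2 higher and 3 lower, beside 5.78% and 4.72%.

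In the SMAD-independent branch, 0 of 19 measured genes were at least 2-fold higher in any comparison, where 5.77%, 4.90% and 5.78% of all named genes were. Lower were 1, 1 and 2 in the 3 comparisons, beside 5.26%, 5.00% and 4.72% of all named genes. MAP2K3, a kinase upstream of p38, had 2290.44 untreated, 1003.95 at day 3 and 1144.18 in the spheres, 2.28-fold lower at day 3 and barely past 2-fold in the spheres. The adaptor gene SHC1 and the kinase gene MAP2K6 were lower in the spheres than at day 3. The related BMP and activin branches gave 13 measured receptors and SMADs. At day 3, 2 were higher and 1 lower, beside 5.77% and 5.26% of all named genes. In the spheres 2 were higher and 0 lower, beside 4.90% and 5.00%. The level filter was passed by 5 of the 13. Of these, 1 was higher and 0 lower at day 3, beside 4.60% and 3.44% of genes past it. Their sphere counts were also 1 and 0, beside 3.98% and 4.40%. SMAD1, which carries BMP signals, had 3242.5 untreated, 5832.48 at day 3 and 6718.02 in the spheres, 2.07-fold higher in the spheres and opposite in direction to SMAD3. BMPR2, the type II BMP receptor gene, was 2.54-fold higher at day 3 and passed the level filter only through the treated arrays.

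The genes with the most similar pattern over the 3 arrays were sought for the 5 core genes whose range passed 2-fold, by the Euclidean distance of log2 values centred on their mean, among genes past the level filter. TGFB1 was nearest to CMTM3 (distance 0.02) and NDRG2 (0.03), TGFB3 to CYB561 (0.01) and TRPV4 (0.02), and TGFBR3 to DISP2 (0.02) and UBE3B (0.04). For SMAD3 they were C19orf33 (0.05) and SLC25A10 (0.11). For TGFB2 the distances were larger, 0.37 for EDIL3 and 0.44 for DNER, and 3 genes lay within 0.5, against 719 for TGFB1, 555 for TGFB3, 351 for TGFBR3 and 136 for SMAD3. The centred values were not scaled, so a member with a wide range has fewer genes near it. TGFB2 had the widest range, 3.85 in log2, and that range rests on low values. TGFB2 and TGFB3 also fail the filter that the searched genes passed. The counts therefore do not show that the TGFB2 pattern is rare. With 3 arrays many genes share a shape, so a near neighbour says little beyond the order and spacing of 3 values.

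**Figure D4:**
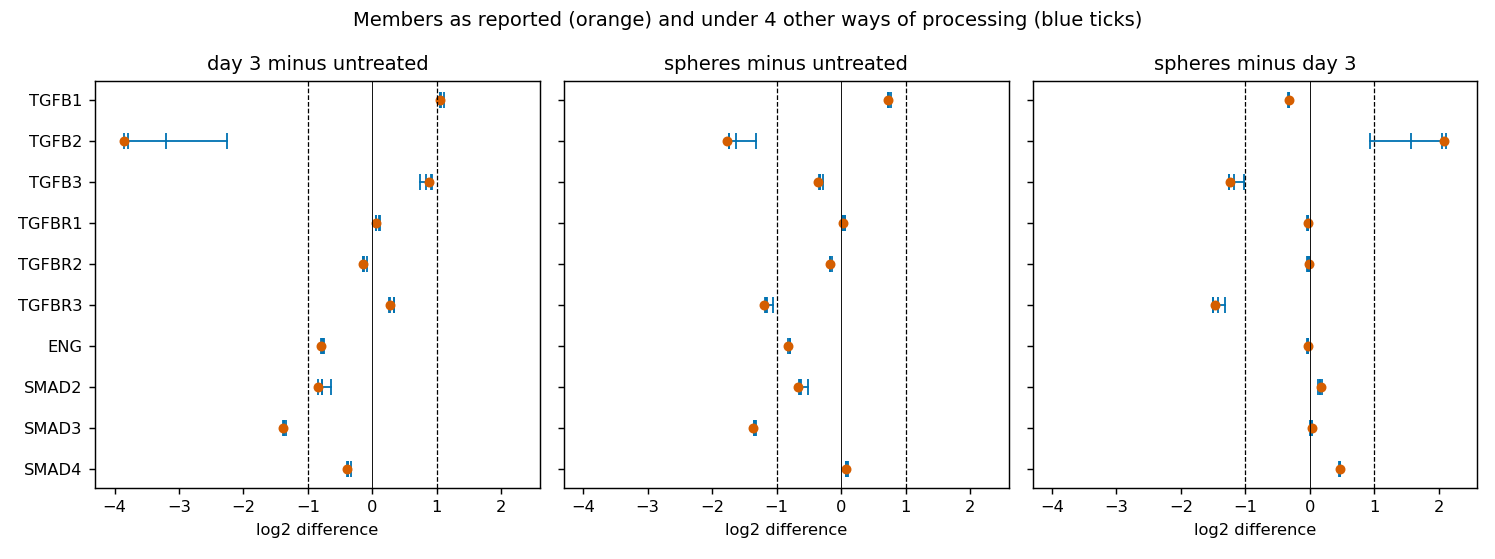
Log2 difference (horizontal axis) of each of the 10 genes as reported (orange points) and under 4 other ways of processing that can change it (median centring, quantile normalization, 16 or 64 added; blue ticks, joined by a line from lowest to highest), in the 3 comparisons, with 2-fold as dashed lines. TGFB2 has the widest lines, from -3.85 to -2.25 at day 3, and the other 9 genes lie on the reported side of 2-fold in all 4.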

How the data were processed

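RNA of 3 cultures was measured on 1 single-colour array each, per the labels. RMA produced the values that the authors deposited, per the submitters' processing notes: 1 intensity for each probe set of an array, linear in scale, from 2.37 to 51529.78. How a linear scale was reached, the RMA version and the scanner: not given in the sources used here. RMA makes array distributions alike, which hides a shift common to most genes. Intensities were converted to log2 without an offset. The platform's gene table named 18188 of the 45033 probe sets through gene identifiers, RefSeq accessions (GRCh38.p14) named 678, and 26167 were unnamed here. Several probe sets of a gene were averaged in log2. The 10 members and all lists were chosen with earlier results of these data known. From each other list, up to 3 genes per comparison were named, those with the largest difference past the level filter whose probe sets moved the same way. Some of these, among them ATF3, BMPR2, FBN1 and PECAM1, passed the filter only through arrays where they were high. Markers listed behind a count were named after their values were seen. The 2-fold procedure was run on simulated data with 3-fold shifts and the same noise at every level. That checks the code and gives no error for these arrays. Python 3.11.15, numpy 2.4.6, pandas 2.3.3 and matplotlib 3.10.9 were used.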

Additional observations from a re-analysis of the deposited data

Results flagged for a closer look

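TGFB3 and TGFBR3 stood on opposite sides of the untreated value at day 3 and in the spheres and differed by at least 2-fold between these treated arrays. TGFB3 differed by -1.23 in log2 between spheres and day 3, with 0.87 at day 3 and -0.36 in the spheres against untreated cells. TGFBR3 differed by -1.47 between spheres and day 3, with 0.28 and -1.20 against untreated cells. With 1 array per group the difference between times was not tested, and both comparisons share the untreated array.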

How the results depend on the processing

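No difference has a replicate check, and 1 array per culture limits every value. No paired analysis was possible because each group has 1 array. The 30 member differences were recomputed under the 4 alternatives that can change them (median centring, quantile normalization, 16 or 64 added): 119 of 120 values kept their side of 2-fold and 0 reversed. Brightest probe set, median over probe sets and platform names only equal the reported values by construction, since each member has 1 platform-named probe set. The exception was TGFB2 between spheres and day 3, 0.93 with 64 added. That removes the call there, leaving 0 members higher, as do the level filter and the upper-quartile filter (0 each). At day 3 against untreated cells, the level filter and the upper-quartile filter left 1 lower each, a threshold of 1.5-fold gave 2 higher and 4 lower, and 3-fold gave 0 higher and 1 lower. In spheres against untreated cells, the upper-quartile filter left 1 lower, 1.5-fold gave 1 higher and 5 lower, and 3-fold gave 1 lower. In spheres against day 3, the level filter left 1 lower, and the upper-quartile filter and 3-fold left 0. The members' median moved by over 0.1 at day 3 with the level filter (-0.15), and in the spheres against untreated cells with the level filter (-0.17), the upper-quartile filter (-0.044) and 64 added (-0.40). Filters and thresholds change these counts by construction.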
